A study of Sus scrofa with 4 samples.

Results

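The mitochondrial ribosomal protein genes are the nuclear genes whose array symbol is MRPL or MRPS followed by a number and at most 1 letter. The array names 54 of them with 86 probes, out of 11060 named genes. Transcript levels were compared between porcine expanded blastocysts grown from the zygote for 7 days in PZM3 medium with 0.2% ethanol and control blastocysts grown without a compound added. RNA was amplified from pools of 10 embryos, and each of the 4 two-colour arrays set 1 ethanol pool against 1 control pool. Ethanol RNA carried Cy5 on arrays 1 and 3, and Cy3 on arrays 2 and 4, so the dyes were swapped. A protocol text shared by all samples places embryo development in sealed glass vials and does not describe the control culture separately. The pools are the replicates. No source used here says whether they came from separate cultures, and the p-values therefore measure only the spread between these pools.

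The mitochondrial ribosome translates the few proteins that mitochondrial DNA encodes, all of them subunits of the respiratory chain and ATP synthase. Its RNA is made inside the organelle, while its proteins are encoded in the nucleus, made in the cytosol and imported. Some of these proteins have a counterpart in the bacterial ribosome, and others were added in mitochondria. Symbols starting with MRPL were given to proteins of the large subunit and those starting with MRPS to the small subunit, although MRPS30 and MRPS18A lie in the large subunit in mammalian structures. The mammalian blastocyst is a stage at which mitochondria mature and oxygen use rises. The comparison addresses whether transcripts of this machinery differ in embryos that reached the blastocyst stage in ethanol.

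Of the 54 genes, 52 had at least 1 probe above background by the filter used, a signal that exceeded 95% of the negative-control spots on at least 3 arrays for the ethanol or for the control RNA. The brightest probe of each of the 52 was above background in both channels of all 4 arrays. MRPL23, in the large subunit, and MRPS2, in the small subunit, were above background on at most 2 of 4 arrays for either RNA. Those genes have no ratio here. Across the whole array 45.3% to 57.3% of probes were above background in Cy5 and 70.4% to 73.5% in Cy3. Of 9 trophectoderm markers, 8 passed the filter, CDX2, GATA3, KRT8 and KRT18 among them, while EOMES was above background on 1 of 4 arrays for either RNA. Of 6 inner cell mass markers, POU5F1, ESRRB and DPPA5 passed, and SOX2, SALL4 and KLF4 did not. All 4 hypoblast markers, 5 of 6 oocyte markers and both blood markers passed. All 9 cumulus and granulosa genes on the array also passed the filter, 3 of them above background in every channel. Fitted log2 ratios of ethanol over control ran from -0.29 (TEAD4) to 0.08 in the trophectoderm list, with 2 genes under an unadjusted limma p of 0.05, and from -0.27 to -0.06 in the inner cell mass list, with 1 such gene, ESRRB at -0.26. They ran from -0.05 to 0.27 in the hypoblast list and from 0.00 to 0.24 in the cumulus list. In the oocyte list they ran from -0.06 to 0.22, with ZP4 under that p at 0.22. The same p was met by 9.03% of all named genes. The part of these cell types in the results below was not tested. In pools of whole embryos, fewer cells of a type and less RNA per cell cannot be told apart.

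As a group, mitochondrial ribosomal protein transcripts were centred on no difference between ethanol and control blastocysts. Each value below is the log2 ratio, ethanol over control, that limma fitted together with a dye coefficient on the brightest probe of the gene. The median over the 52 genes was -0.01, with 24 genes above 0 and 28 below, and the lower and upper quartiles were -0.10 and 0.09. The median over all 7344 measured named genes was 0.00, with 50.4% of them below 0. The median size of the ratio regardless of sign was 0.10 in the members and 0.07 in all named genes, and the difference was not tested. The lowest member was MRPS6 at -0.35 and the highest MRPL22 at 0.22. No member passed limma's Benjamini-Hochberg adjusted threshold of 0.05, where 0% of all named genes passed, and the smallest adjusted p of a member was 0.558.

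In the fit used here, with a normexp offset of 50 in the background correction, the measurement was narrow enough to bound most members. For 51 of the 52 genes the 95% interval of the fitted ratio lay within 1.5-fold in either direction, against 94.6% of all named genes. The exception was MRPS6, whose interval ran from 0.66-fold to 0.93-fold. These intervals were not recomputed under other settings. With a normexp offset of 0, MRPL28 had -0.34 in place of -0.30 and MRPL49 -0.17 in place of -0.12. MRPL13 (-0.18) and MRPL17 (0.15) hardly moved. The standard errors of the members ran from 0.07 to 0.13 on the log2 scale. On simulated data of 25899 probes the same fit found 13 of 50 probes changed 1.5-fold and 39 of 50 changed 2-fold. Probes changed 3-fold and 4-fold were planted alongside and all found, which eases the adjusted threshold for the rest. No probe passed in the real data, so these shares are likely too high for it. Most changes of 1.5-fold would go uncalled at this number of arrays.

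**Figure D1:**
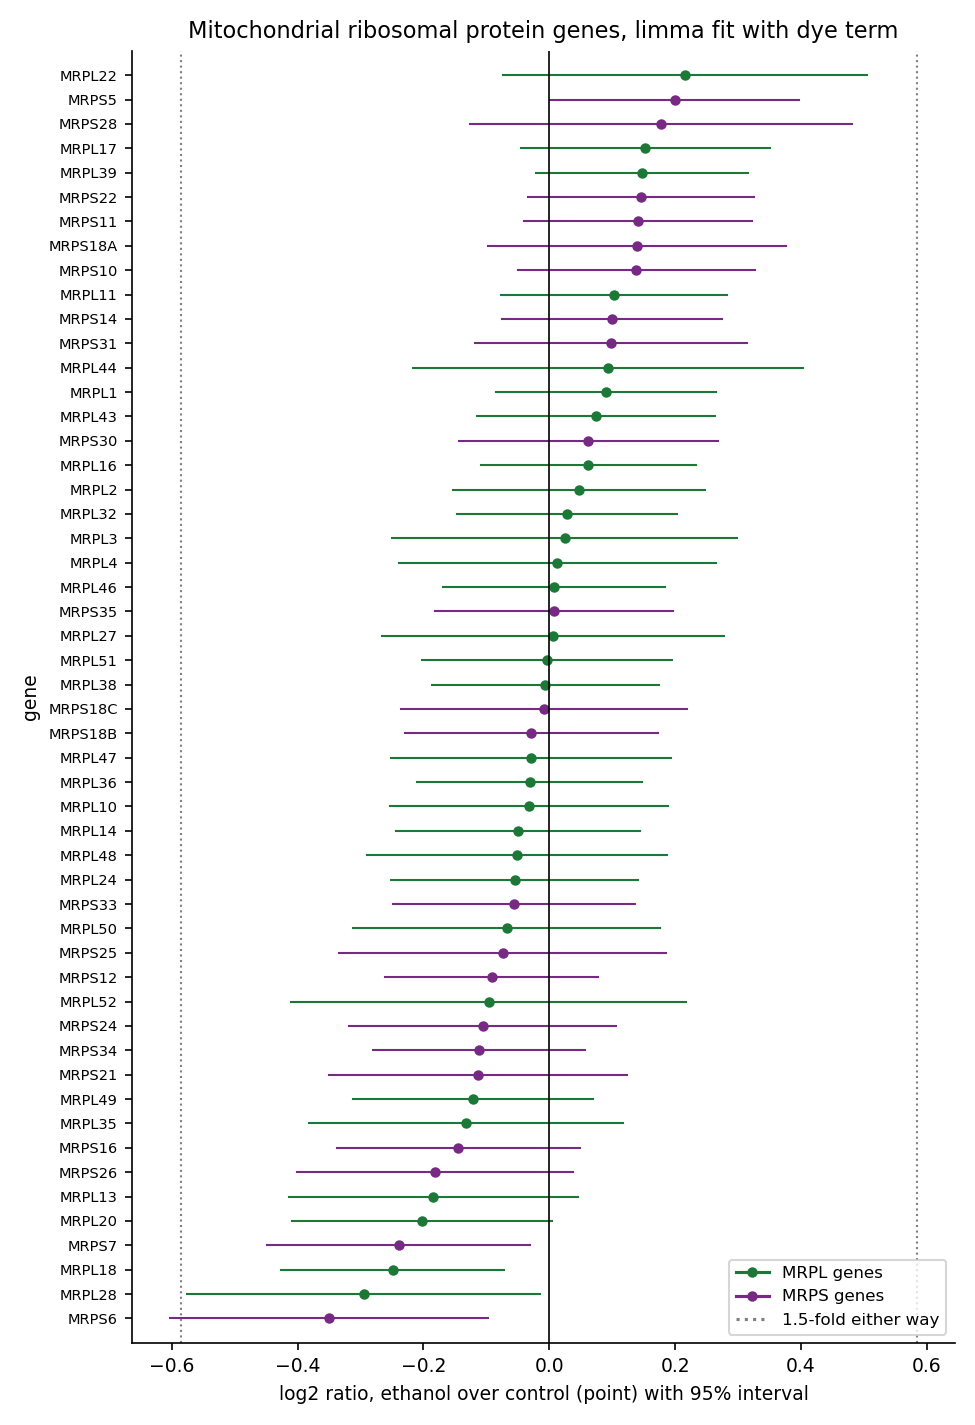
Fitted log2 ratio of ethanol over control (points) with its 95% interval (lines) for each of the 52 measured mitochondrial ribosomal protein genes, green for MRPL and purple for MRPS symbols; dotted lines mark 1.5-fold. The genes spread from MRPS6 at -0.35 to MRPL22 at 0.22, and 51 of the 52 intervals stay between the dotted lines.

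An unadjusted limma p under 0.05 was reached by 5 of the 52 genes (9.62%), against 9.03% of all named genes. A share of that size is close to the background and is no result about the members. In the lower direction there were 4 genes, where 4.19% of named genes met the same rule, and in the higher direction 1, where 4.83% did. Leaving out array 2 or array 3 gave 3 genes, where 6.5% and 9.1% of all named genes met the same rule. A normexp offset of 0 gave 1 gene, as did a fit that had no dye term, and a trended, robust variance gave 2. Those settings gave 7.38%, 4.3% and 3.36% of all named genes. Mean pixel signals gave 6 genes (9.41% of all named genes), and no filter on dim probes gave 7 of 54 (7.94%). The 5 genes are given first, as values.

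Among the large subunit proteins with a bacterial counterpart, MRPL18, a protein of the central protuberance, had the smallest p of all members. Its normalized log2 intensity in the ethanol pools was 9.64, 9.34, 9.64 and 9.98 on arrays 1 to 4. In the control pools it was 9.79, 9.74, 9.64 and 10.44. The levels of both kinds of pool overlapped, and the ethanol pool was the lower of the pair on 3 arrays and level with its control on array 3. The ratios of single arrays were -0.15, -0.40, 0.01 and -0.46, and the fitted value was -0.25 (SE 0.07, adjusted p = 0.558 by limma), a 1.19-fold difference. The other MRPL18 probes lay at -0.15 and 0.04, and with all 3 averaged the gene had -0.12.

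MRPL28, a further large subunit protein with a bacterial counterpart, had array ratios of -0.32, -0.10, -0.89 and 0.14. Array 3 was the lowest and array 4 lay on the other side of 0, so the pairs did not share a sign. The fitted value was -0.30 (SE 0.11, adjusted p = 0.67 by limma) and -0.15 without array 3. A second MRPL28 probe had -0.26 and the third 0.07.

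In the small subunit, MRPS6, which sits on the platform, had the lowest fitted value of the family. Its log2 intensity in the ethanol pools was 9.27, 9.28, 9.71 and 9.47, and in the control pools 9.66, 9.96, 9.68 and 9.84. The ethanol pool of array 3 was the one that reached into the control range. The array ratios were -0.38, -0.68, 0.03 and -0.37, and the fit gave -0.35 (SE 0.10, adjusted p = 0.567 by limma), a 1.27-fold difference. With 1 array left out the fitted value ran from -0.45 to -0.25. MRPS6 has 1 probe, so no second measurement of the transcript was at hand.

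MRPS7, a protein of the head of the small subunit, had the ethanol pool lower on all 4 arrays. The ratios were -0.02, -0.47, -0.25 and -0.21, with a fitted value of -0.24 (SE 0.08, adjusted p = 0.635 by limma). The MRPS7 value ran from -0.31 to -0.17 with 1 array left out. Its second probe lay at -0.20. MRPS5, which lines the path by which messenger RNA enters the small subunit, was the only 1 of the 5 in the higher direction. Arrays 1 and 3, with ethanol RNA in Cy5, gave ratios of 0.42 and 0.69, while arrays 2 and 4 gave -0.20 and -0.12. These signs followed the dye, with a dye coefficient of 0.36, and the fitted value was 0.20 (SE 0.08, adjusted p = 0.685 by limma), or 0.13 without array 3.

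The 7 members next in order of p went both ways. MRPL20, another large subunit protein with a bacterial counterpart, had -0.20 (SE 0.08) and array ratios of -0.17, -0.27, -0.36 and 0.00, the last just below 0. MRPL13 had -0.18 (SE 0.09) with ratios of 0.00, -0.42, -0.25 and -0.07, and MRPS26, which has no bacterial counterpart, had -0.18 (SE 0.09). On the higher side, MRPL39 had 0.15 (SE 0.07), MRPS22 0.15 (SE 0.07), MRPS11 0.14 (SE 0.07) and MRPL17, near the exit of the peptide tunnel, 0.15 (SE 0.08). A second MRPL39 probe, nearly as bright, lay at 0.06, and with its probes averaged MRPL39 had 0.10. MRPS22 is a small subunit protein in which human mutations cause a deficiency of oxidative phosphorylation. Its ratios were 0.58 and 0.41 on arrays 1 and 3 but -0.16 and -0.24 on arrays 2 and 4, so they too followed the dye. Several of these values moved when 1 array was left out. Without array 2, MRPL20 had -0.13, MRPL13 -0.10 and MRPS26 -0.12. Without array 1, MRPS26 had -0.11. Without array 3, MRPL13 had -0.12, MRPL17 0.08 and MRPS11 0.09.

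**Figure D2:**
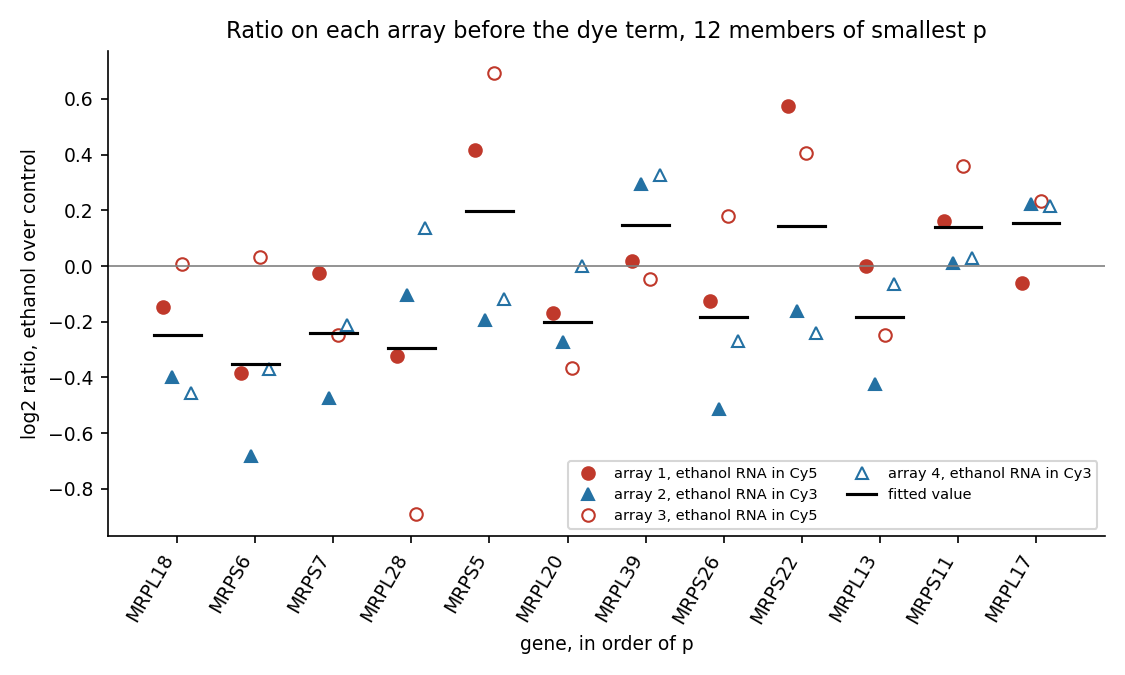
Log2 ratio of ethanol over control on each array before the dye term, for the 12 members of smallest p (red circles: ethanol RNA in Cy5, arrays 1 and 3; blue triangles: ethanol RNA in Cy3, arrays 2 and 4; black bars: fitted value). MRPS5 and MRPS22 show both circles above 0 and both triangles below it, while MRPS7 lies below 0 on all 4 arrays.

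Counted by array, 5 of the 52 members had one sign on all 4 arrays before the dye term, against 10.3% of all named genes. MRPS7, MRPL20, MRPL13 and MRPS34 were lower on every array and MRPS11 was higher. Among named genes 4.83% were lower on all arrays and 5.5% higher. The MRPS34 value was -0.11 (SE 0.07). MRPL20 on array 4 and MRPL13 on array 1 were below 0 by less than 0.01, so their place in this count rests on values near 0.

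Split by symbol, the MRPL and MRPS genes gave like medians. MRPS30 and MRPS18A, which lie in the large subunit, are counted with the MRPS genes in this split. The 30 MRPL genes had a median of -0.01, with 14 above 0 and 16 below, and 2 (6.67%) under an unadjusted p of 0.05, where 9.03% of all named genes were. The 22 MRPS genes had a median of -0.02, with 10 above 0 and 12 below, and 3 (13.6%) under that p. Neither the difference between the symbol groups nor that between the classes by origin was tested. By origin, 20 large subunit genes with a bacterial counterpart had a median of -0.01 and 11 without one 0.00, MRPS30 being counted among the latter. The 12 small subunit genes with a bacterial counterpart had a median of -0.05 and the 7 without one -0.06. MRPS18A and MRPS18B were set aside from these classes. Of the large subunit members without one, MRPL39 and MRPL49 had the smallest p, at 0.15 (SE 0.07) and -0.12 (SE 0.08). MRPL49 had -0.06 without array 2 and -0.18 without array 4.

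The MRPS18 paralogues are a family of 3 proteins related to the single bacterial protein S18, and in mammals they take different positions in the ribosome. MRPS18A had array ratios of -0.19, 0.22, 0.26 and 0.27, with array 1 apart from the others, and a fitted value of 0.14 (SE 0.10), which became 0.25 without array 1 and 0.03 without array 3. MRPS18B had -0.25, 0.32, -0.55 and 0.37. Its ratios were below 0 with ethanol RNA in Cy5 and above 0 in Cy3, with the largest dye coefficient of the family in size (-0.37), and the fitted value was -0.03 (SE 0.08). MRPS18C had -0.07, -0.12, 0.35 and -0.18, and a fitted value of -0.01 (SE 0.09). The 95% intervals ran from -0.10 to 0.38 for MRPS18A, from -0.23 to 0.17 for MRPS18B and from -0.24 to 0.22 for MRPS18C, and each held 0.

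The dye coefficient, the part of the log2 ratio that stayed with Cy5, was above 0 in 38 of the 52 genes, against 3636 of 7344 named genes. Its median was 0.13 in the members and 0.00 over all named genes. Besides MRPS18B, the largest were those of MRPS14, in the head of the small subunit, at 0.37 and of MRPL11, at the base of the stalk that receives translation factors, at 0.37. MRPS14 stood at 0.40 and 0.54 on arrays 1 and 3, and at -0.30 and -0.25 on arrays 2 and 4, and its fitted value was 0.10 (SE 0.07), or 0.07 without array 3. MRPL11 stood at 0.49 and 0.44 on arrays 1 and 3, and at -0.35 and -0.18 on arrays 2 and 4, with a fitted value of 0.10 (SE 0.07), or 0.06 without array 4. Across the 52 genes, which share the same arrays, the dye coefficient and the fitted ratio had a Pearson correlation of 0.05 and a Spearman correlation of -0.02.

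The family's median moved with the dye too. Before the dye term it was 0.01 and 0.14 on arrays 1 and 3, and -0.20 and -0.08 on arrays 2 and 4. After the dye term it was -0.07, -0.07, 0.03 and 0.07 on arrays 1 to 4, a spread around 0 (SD 0.07 between arrays) that was larger than the median itself. With 1 array left out the median ran from -0.05 to 0.01. For the MRPL genes the values after the dye term were -0.05, -0.10, 0.03 and 0.08, and for the MRPS genes -0.09, -0.04, 0.03 and 0.00.

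Genes matched by symbol as cytosolic ribosomal proteins are shown beside them. The match also takes in the paralogues RPL7L1, RPL10L, RPL26L1 and RPS27L. Most of the matched genes build the ribosome that makes the MRP proteins themselves. Their median over 49 genes was -0.19 with 44 below 0, and before the dye term it was 0.13 and 0.21 on arrays 1 and 3, and -0.61 and -0.53 on arrays 2 and 4. After the dye term it was -0.24, -0.21, -0.13 and -0.20 on arrays 1 to 4. The dye term makes both orientations of a gene average to its fitted value, so likeness between the orientations after it is built in. RPS28 had ratios of 0.59, -1.51, 0.52 and -1.32 on arrays 1 to 4, whose signs followed the dye, and a fitted value of -0.43 (SE 0.07). RPS3A had -0.38 (SE 0.07, or -0.19 with its probes averaged), and no gene of the list passed the adjusted threshold. An unadjusted p under 0.05 was met by 22 of the 49 (44.9%), 21 lower and 1 higher, against 9.03% of all named genes and 5 of 52 mitochondrial members. The 1 higher gene was the paralogue RPL7L1, at 0.30 (SE 0.10). The paralogues RPL10L (-0.25) and RPS27L (-0.22) were among the 21 lower. The cytosolic genes had a median dye coefficient of 0.40, so they also shifted more with the dye. The difference between the families was not tested. The 48 genes matched by symbol as nuclear-encoded respiratory chain subunits had a median of -0.04, with 33 below 0. Of these genes, 4 (8.33%) were under an unadjusted p of 0.05. Many of them are assembled with the products of the mitochondrial ribosome, which does not hold for SDHB and SDHD. The match also takes in ATP5S and ATP5SL, which are not core subunits, and ATP5SL (-0.23) was 1 of the 4. The complex I subunits NDUFB7, at -0.35 (SE 0.09), and NDUFA7, at -0.26 (SE 0.07), had the smallest p.

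**Figure D3:**
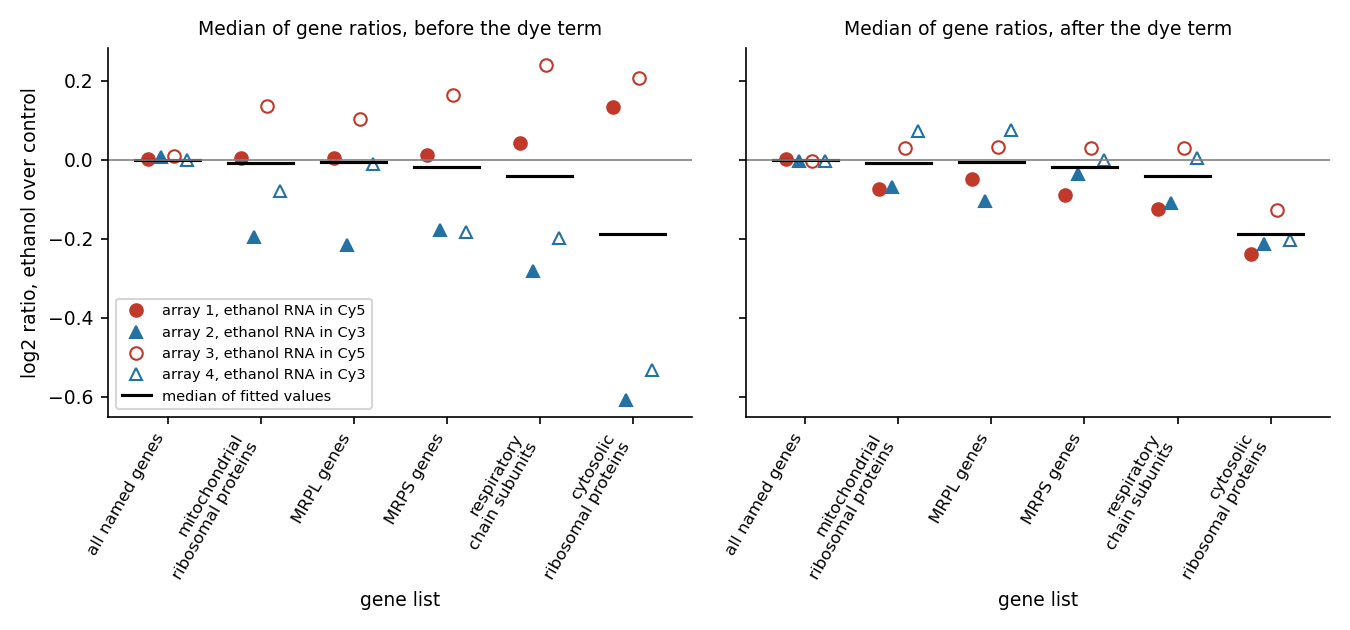
Median log2 ratio of ethanol over control on each array, before (left) and after (right) the dye term, for all named genes, the mitochondrial ribosomal protein genes and their MRPL and MRPS parts, respiratory chain subunits and cytosolic ribosomal proteins (circles: ethanol RNA in Cy5; triangles: in Cy3; bars: median of fitted values). After the dye term the mitochondrial family lies from -0.07 to 0.07 and the cytosolic family from -0.24 to -0.13.

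Genes with several probes gave a check within the array. Of the 52 members, 20 had more than 1 probe kept. In 12 of these all kept probes had the same direction, 8 lower and 4 higher, and in 8 they differed in sign. The pair of MRPL13 probes lay at -0.18 each, the pair of MRPL20 probes at -0.20 and -0.15, and the 3 MRPS26 probes at -0.18, -0.23 and -0.16. The 3 probes of MRPL11 lay between 0.01 and 0.10.

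Where probes of a gene differed in sign, the gap was widest in MRPL28 (0.37), whose brightest probe stood at -0.30 and dimmest at 0.07. MRPL18 followed with -0.25 to 0.04. MRPS31, a small subunit protein without a bacterial counterpart, had probes at 0.10, 0.025 and -0.16, and a mean over its probes of -0.01. With 1 array left out, the brightest MRPS31 probe ran from 0.02 without array 1 to 0.18 without array 3. MRPS28 had 0.18, 0.00 and 0.09. The brightest MRPS28 probe had ratios of -0.14, 0.05, 0.12 and 0.69, with array 4 the highest, and its fitted value was 0.02 without array 4 and 0.34 without array 2. MRPS11 had 0.14, -0.02 and 0.06, with a mean over its probes of 0.06. MRPL27, whose bacterial counterpart reaches the peptidyl transferase centre, had 0.01, -0.14 and -0.04. Which transcript forms these probes detect is not given in the sources used here.

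**Figure D4:**
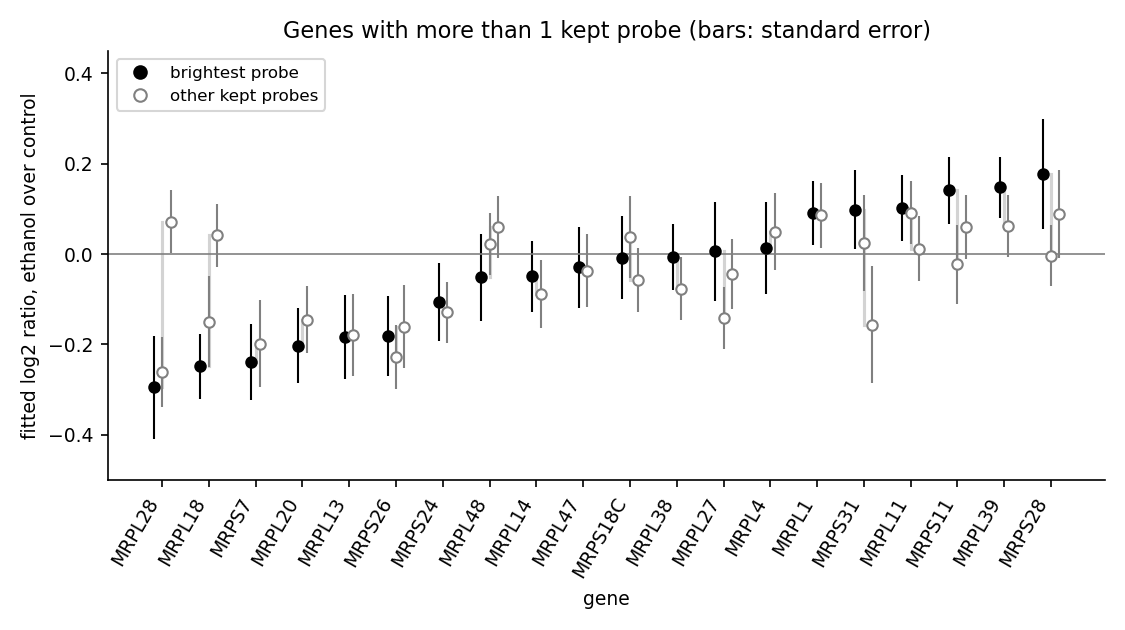
Fitted log2 ratio of ethanol over control with its standard error for every kept probe of the 20 members with more than 1 (black: brightest probe; open: other probes), ordered by the brightest probe. The probes of MRPL13, MRPS7 and MRPS26 lie close together below 0, while those of MRPL28, MRPL18 and MRPS31 fall on both sides of 0.

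In the RefSeq table of Sscrofa11.1, MRPS11 and MRPL46 are next to each other with 0 protein-coding genes between them, and MRPS18A and MRPL14 are separated by 2. MRPS11 had a fitted value of 0.14 (SE 0.07) and its neighbour MRPL46, a large subunit protein, 0.01 (SE 0.07). MRPS18A had 0.14 (SE 0.10) and MRPL14 -0.05 (SE 0.08). In both pairs the interval of each gene held 0.

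Proteins of the mitochondrial ribosome that carry other symbols were compared as a further list. All 5 on the array were measured, and their median was -0.02, with 1 gene higher than 0 and 4 lower. GADD45GIP1, a large subunit protein also known as CRIF1, had -0.20 (SE 0.07), with array ratios of 0.10 and 0.06 in Cy5 and -0.40 and -0.55 in Cy3, and -0.13 with mean pixel signals. ICT1, a peptidyl-tRNA hydrolase built into the large subunit, had 0.15 (SE 0.10, from 0.07 to 0.23 with 1 array left out), and CHCHD1 -0.08 (SE 0.10, 0.04 without array 1). No gene of the list passed the adjusted threshold and 1 of 5 had an unadjusted p under 0.05, as had 9.03% of all named genes.

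Genes that serve the mitochondrial ribosome also gave small ratios, and no gene in these lists passed the adjusted threshold by limma. As background for the counts in these lists, 9.03% of all named genes had an unadjusted p under 0.05. The 10 translation factors and helpers had a median of 0.06, 5 above and 5 below 0, and 1 in each direction was under an unadjusted p of 0.05. MTRF1, of the release factor family, had 0.27 (SE 0.10, 0.16 without array 2), the recycling factor GFM2 0.18 (SE 0.08, 0.12 without array 2 and 0.29 with a normexp offset of 0), and the inner membrane protein LETM1 -0.18 (SE 0.07, -0.07 with mean pixel signals). The signs of LETM1 followed the dye, with ratios of -0.63, 0.36, -0.82 and 0.36 on arrays 1 to 4. The 12 assembly genes had a median of -0.01 with 2 under that p, both lower. These were ERAL1, a GTPase that binds the small subunit's RNA, at -0.24 (SE 0.09, -0.16 without array 3), and the helicase DHX30, at -0.19 (SE 0.07). DHX30 also followed the dye, with ratios of -0.54, 0.18, -0.57 and 0.19. RPUSD4, a pseudouridine synthase, had -0.20 (SE 0.10, -0.09 without array 1 and -0.31 without array 3).

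Of 7 genes of mitochondrial transcription and RNA processing, PNPT1, the polynucleotide phosphorylase of mitochondria, had array ratios of 0.05, 0.42, 0.36 and 0.40. It was higher on all 4 arrays, as were 5.5% of all named genes, with a fitted value of 0.31 (SE 0.08, adjusted p = 0.54 by limma). PNPT1 was the only gene of the 7 (14.3%) under an unadjusted p of 0.05, against 9.03% of all named genes. The polymerase MTPAP had 0.18 (SE 0.08, 0.11 without array 2). HSD17B10, a subunit of mitochondrial RNase P, had -0.17 (SE 0.09, -0.10 without array 2 and -0.09 without array 3). The HSD17B10 value lay further from 0 without array 1 (-0.25), with mean pixel signals (-0.23) and with its probes averaged (-0.26). All 6 measured mitochondrial aminoacyl-tRNA synthetases, which charge tRNAs for the organelle, lay below 0, from -0.19 to -0.02 with a median of -0.12, and 0 of them had an unadjusted p under 0.05. TARS2 had -0.13 (SE 0.07) with ratios of -0.19, -0.11, -0.08 and -0.14, FARS2 -0.19 (SE 0.12, -0.04 without array 3 and -0.35 without array 1) and LARS2 -0.12 (SE 0.08, -0.05 without array 3 and -0.18 without array 1). Of the 11 synthetase genes on the array, 5 did not pass the filter on dim probes.

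**Figure D5:**
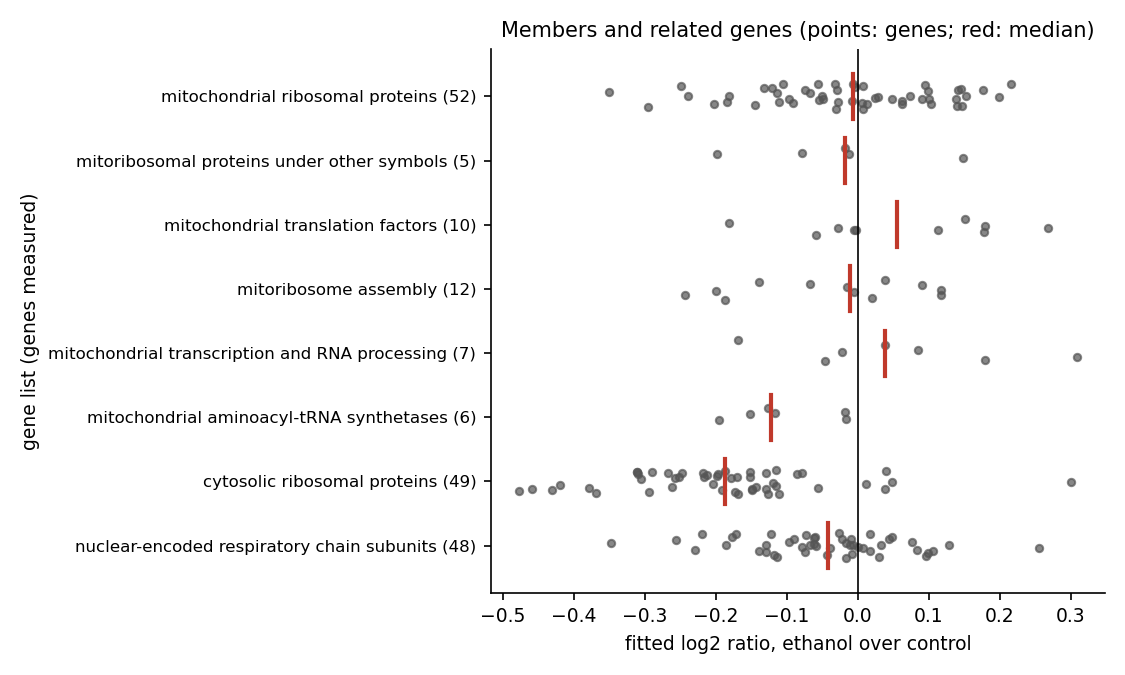
Fitted log2 ratio of ethanol over control for each gene (points) of the mitochondrial ribosomal proteins and of the related lists, with the median in red and the number of genes measured in parentheses; vertical scatter within a row has no meaning. The 52 members centre on -0.01, the 6 synthetases on -0.12 and the 49 cytosolic ribosomal proteins on -0.19.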

How the data were processed

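The authors deposited scanner output for each array. Per the file headers it gives the raw intensity of every spot and of its surroundings in each dye. Median pixel values were used, with mean pixel values as an alternative. Background was corrected with limma's normexp (offset 50), and each array was normalized by loess with weight 0 for 1426 non-probe spots (R 4.3.3, limma 3.58.1). The filter above kept 25899 of 43794 probes. limma's fit had an ethanol coefficient signed by dye orientation and a dye coefficient, leaving 2 residual degrees of freedom, and p-values were adjusted by Benjamini-Hochberg across every kept probe. Pool levels were taken after Aquantile scaling. The precision is limited by the number of arrays. No slide or scan date was at hand, and no batch was tested.

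The authors' deposited table holds log2 ratios. Its columns ran as Cy5 over Cy3 and correlated at 0.985 to 0.997 over probes with ratios recomputed by plain subtraction and loess, with medians of -0.0138, -9.35e-05, 0.00378 and 0.00108. How it was normalized is not given in the sources used here. Another table was left out because its 4 value columns could not be tied to single samples by name.

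Symbols are those of the array's annotation, and 1023 probes with placeholder symbols were set aside. Of 7 member probes with an accession, 5 matched the RefSeq table and 5 kept their symbol there. Members, lists and the naming rule were chosen with earlier results of these data known. The rule named the 12 members of smallest p, the 2 of smallest p in each of 4 classes, the MRPS18 paralogues, up to 6 genes whose probes differ in sign, the 3 largest dye coefficients and 2 or 3 genes of each related list. Other members, each with its value, were named after their values were seen, as ends of a range, members of a count of 5 or neighbours. Promoter motifs and protein comparisons were planned and are not analysed here. On simulated data for ethanol over control, over 25899 probes, the fit called 13 unchanged probes, and its 95% intervals held the true value for 95.1% of probes. The simulated noise was drawn from the fit's own variance model, so that coverage is largely built in. Alternatives changed, 1 at a time, the dye term, variance model, background correction, normalization, pixel summary and probe filter, or used the authors' values, gene means over probes, separate channels or 3 of the 4 arrays.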

Additional observations from a re-analysis of the deposited data

Results flagged for a closer look

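Ratios before the dye term were searched for an array far from the other 3, over 52 members and 3 medians, and 3 genes were marked. Chance marks about 1 group in 20, and a dye bias sets pairs of arrays apart. MRPL17 had -0.059 on array 1, while arrays 2 to 4 gave 0.22 to 0.23. MRPL51, a large subunit protein without a bacterial counterpart, had 0.22 on array 3, with the remaining arrays from -0.09 to -0.07. MRPS18A had -0.19 on array 1, while arrays 2 to 4 gave 0.22 to 0.27.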

How the results depend on the processing

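No member passed the adjusted threshold under any of 16 alternatives. The number of members at an unadjusted p under 0.05 was 5 as reported. The number was 1 with a normexp offset of 0, 1 without the dye coefficient and 2 with a trended, robust variance. The same settings gave 7.38%, 4.3% and 3.36% of all named genes. Mean pixel signals gave 6 members and no filter on dim probes 7 of 54, beside 9.41% and 7.94% of all named genes. With 1 array left out the number ran from 3 to 4, beside 6.5% to 10.6% of all named genes. The cause was not tested. With 1 array left out, the medians over all members, MRPL genes and MRPS genes ran from -0.05 to 0.01, from -0.04 to 0.04 and from -0.06 to 0.01. Under every alternative they moved by less than their spread between arrays. For fits with 1 array left out that outcome was close to fixed in advance, since shift and spread come from the same residuals. Aquantile, separate channels, the fit without the dye coefficient and the trended, robust variance leave the fitted ratios as they are by construction. The changed probe filters leave the ratio of a given probe as it is. The direction turned in 11 of 639 comparisons over 40 named genes, in 5 genes with reported values from -0.08 to 0.10. Many of the 639 could not turn, because their setting leaves the ratio as it is, so this share does not measure stability. MRPS18C was 0.011 with median centring and 0.0041 with mean pixel signals, and with 1 array left out ran from -0.11 to 0.10. MRPL27 was -0.0053 with mean pixel signals and -0.060 with probes averaged, and ran from -0.13 to 0.15 with 1 array left out. MRPS31 was -0.011 with probes averaged. MRPS18B ran from -0.10 to 0.048 and CHCHD1 from -0.20 to 0.042 with 1 array left out. In the simulated data 13 of 50 probes changed 1.5-fold were called, so most changes of that size or smaller would be missed with 4 arrays. Every ratio already pairs the ethanol and control pool of 1 array. The labels give no replicate numbers, so no further replicate block was fitted.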
